A study of Mus musculus with 22 samples.

Results

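The antioxidant defense genes described here are 10 genes chosen by symbol from the deposited expression files, Nqo1, Gclc, Gclm, Txnrd1, Srxn1, Sod1, Sod2, Sod3, Cat and Gpx3. They were 10 of 52526 distinct gene symbols in the files, and all 10 were among the 15138 genes tested, which lay above the deposited minimum in at least 5 mice. The RNA came from left 4th mammary tissue of 22 female C57BL/6J mice aged 7 to 8 weeks, all labelled as experiment 1, collected 24 hours after 100000 luciferase-expressing EO771 cells, a mammary cancer line of the same strain, were placed in that fat pad. For 2 weeks before engraftment the mice had either a running wheel (wheel-running mice) or only the hub of a wheel (sedentary control mice). Liposomes were given 24 hours before engraftment and again with the cells, and held either PBS, an inert buffer, or clodronate, which kills phagocytes that swallow it. The PBS groups held 6 control and 6 wheel-running animals, and the clodronate groups 5 and 5. All 4 groups therefore carried the engrafted cancer cells and all received liposomes, and no group without either was compared here. Liposomes reach phagocytes of many tissues, so clodronate is not a treatment of mammary macrophages alone.

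Reactive oxygen species are by-products of respiration and weapons of phagocytes, and cells remove them in steps. Superoxide dismutases turn superoxide into hydrogen peroxide, and catalase, glutathione peroxidases and peroxiredoxins then turn the peroxide into water. Glutathione and thioredoxin supply electrons to the glutathione peroxidases and peroxiredoxins and are recharged with NADPH, whereas superoxide dismutases and catalase need neither. Many of the enzymes are induced by NRF2, encoded by Nfe2l2, a transcription factor that KEAP1 marks for degradation in resting cells and that binds the antioxidant response element near its target genes when oxidants disable KEAP1. Mammary fat pads consist largely of fat cells, with epithelial ducts, vessels, fibroblasts and immune cells among them.

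The promoters were searched for TGACNNNGC, the core of the antioxidant response element, on both strands, to show which of the 10 genes hold these letters near a start site. RefSeq promoter windows (GRCm38.p6, 250 bases before to 50 bases after each start) were listed for 8 of the 10 genes, all but Gclc and Sod3. The motif was present in windows of 4 genes, Gclm, Txnrd1, Srxn1 and Sod1, and in none of the windows of Nqo1, Sod2, Cat and Gpx3. That was 4 of 8 genes, beside 14.0% of all genes with a window, and 4 of 10 windows, beside 12.4% of all 32851 windows. In all 4 genes the motif was read on the strand opposite to the gene, so that it appears as its reverse complement in the stretches printed here, with the motif in capitals. Those stretches were chr3:122245383-122245471 (+) for Gclm, chr10:82859074-82859162 (+) for Txnrd1, chr2:152105542-152105570 (+) for Srxn1 and chr16:90220666-90220754 (+) for Sod1.
Gclm: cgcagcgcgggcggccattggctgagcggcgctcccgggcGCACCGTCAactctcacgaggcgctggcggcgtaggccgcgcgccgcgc
Txnrd1: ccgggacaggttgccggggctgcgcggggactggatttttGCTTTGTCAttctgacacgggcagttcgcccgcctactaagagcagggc
Srxn1: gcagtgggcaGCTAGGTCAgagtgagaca
Sod1: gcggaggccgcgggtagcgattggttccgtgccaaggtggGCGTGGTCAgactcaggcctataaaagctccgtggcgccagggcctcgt
Counted from its first capital, the motif lay 134 bases before the RefSeq start of Gclm, 92 bases before 1 of the 3 listed starts of Txnrd1 and 56 bases before that of Sod1. In Srxn1 it began at base 29 of the transcript. A match to these letters is a description of the sequence and says nothing of binding in this tissue.

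The genes lie on 9 chromosomes in the GRCm38 build, the build named in the submitters' processing notes, with gene models from GENCODE M21. Nqo1 lies at chr8:107388225-107403206 on the minus strand, Gclc at chr9:77754535-77794485 on the plus strand, Gclm at chr3:122245557-122270732 on the plus strand and Txnrd1 at chr10:82833951-82897712 on the plus strand. Cat, at chr2:103453849-103485160 on the minus strand, and Srxn1, at chr2:152105516-152111376 on the plus strand, share chromosome 2. The 3 superoxide dismutases lie apart, Sod1 at chr16:90220754-90226329, Sod2 at chr17:13006846-13040063 and Sod3 at chr5:52363791-52371418, all on the plus strand, and Gpx3 lies at chr11:54902453-54910377 on the plus strand. Exons of Sod1 overlap Scaf4 on the opposite strand, which had a mean of 18.6 CPM (reads scaled to a common library total), and the last bases of the Sod1 transcript match 1 other gene, Gm8566, at 97% identity or more. The values of Sod1 are therefore uncertain to that extent, since neither the strand setting nor the counting program is given in the sources used here. Gclm overlaps an antisense gene, Gm17494, that stayed at the deposited minimum in all 22 mice.

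QuantSeq libraries hold tags from the 3′ end of each transcript, so CPM of 3′ tags can be compared between genes without a length correction. Depth ran from 13256467 to 20484578 reads per mouse (median 16293026), and values under 1 CPM had been raised to 1, which stands for at most 13 to 20 reads. Of the reads, 57.2% to 64.5% were assigned to genes. The share was 57.2% to 58.5% in clodronate wheel-running and 58.7% to 63.0% in clodronate control mice, without overlap. It was 58.3% to 63.7% in PBS wheel-running and 60.4% to 64.5% in PBS control mice. CPM is scaled to all reads, so a lower share lowers the values of genes in general. All 10 adipocyte markers and all 10 mammary epithelial markers of the marker lists were detected, as the tissue label requires. Markers of lymphocytes split the mice. Their score, the mean log2(CPM + 1) of 12 genes, was 4.14 to 5.48 in 5 mice (PBS control 2, PBS wheel 3 and clodronate wheel 3, 4 and 5) and 1 to 1.32 in the other 17. The summed skeletal muscle markers ran from 36.7 to 27944 CPM. These values differ between pieces of tissue, and in such bulk RNA fewer cells of a type cannot be told apart from less RNA per cell.

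Over all 22 mice Gpx3 and Sod1 gave the most tags and Nqo1 the fewest. The medians in CPM were 601 for Gpx3, 494 for Sod1, 230 for Cat, 102 for Sod2 and 71.1 for Sod3. They were lower for the other 5 genes, at 45.6 CPM for Gclc, 32.2 for Txnrd1, 30.5 for Gclm, 14.1 for Srxn1 and 2.38 for Nqo1. Ranges over mice overlapped between each gene and the next in this order, except between Srxn1 (5.31 to 30.3 CPM) and Nqo1 (1 to 5.25 CPM). Within groups the SD was smallest for Sod2, at 0.24 on the log2(CPM + 1) scale, and largest for Nqo1 (0.53) and Gpx3 (0.52). For Gpx3, with at least 4570 reads in every mouse, that spread was wider than in 88.9% of the 63 genes of like level. The values of all 10 genes in each mouse are plotted by group.

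**Figure D1:**
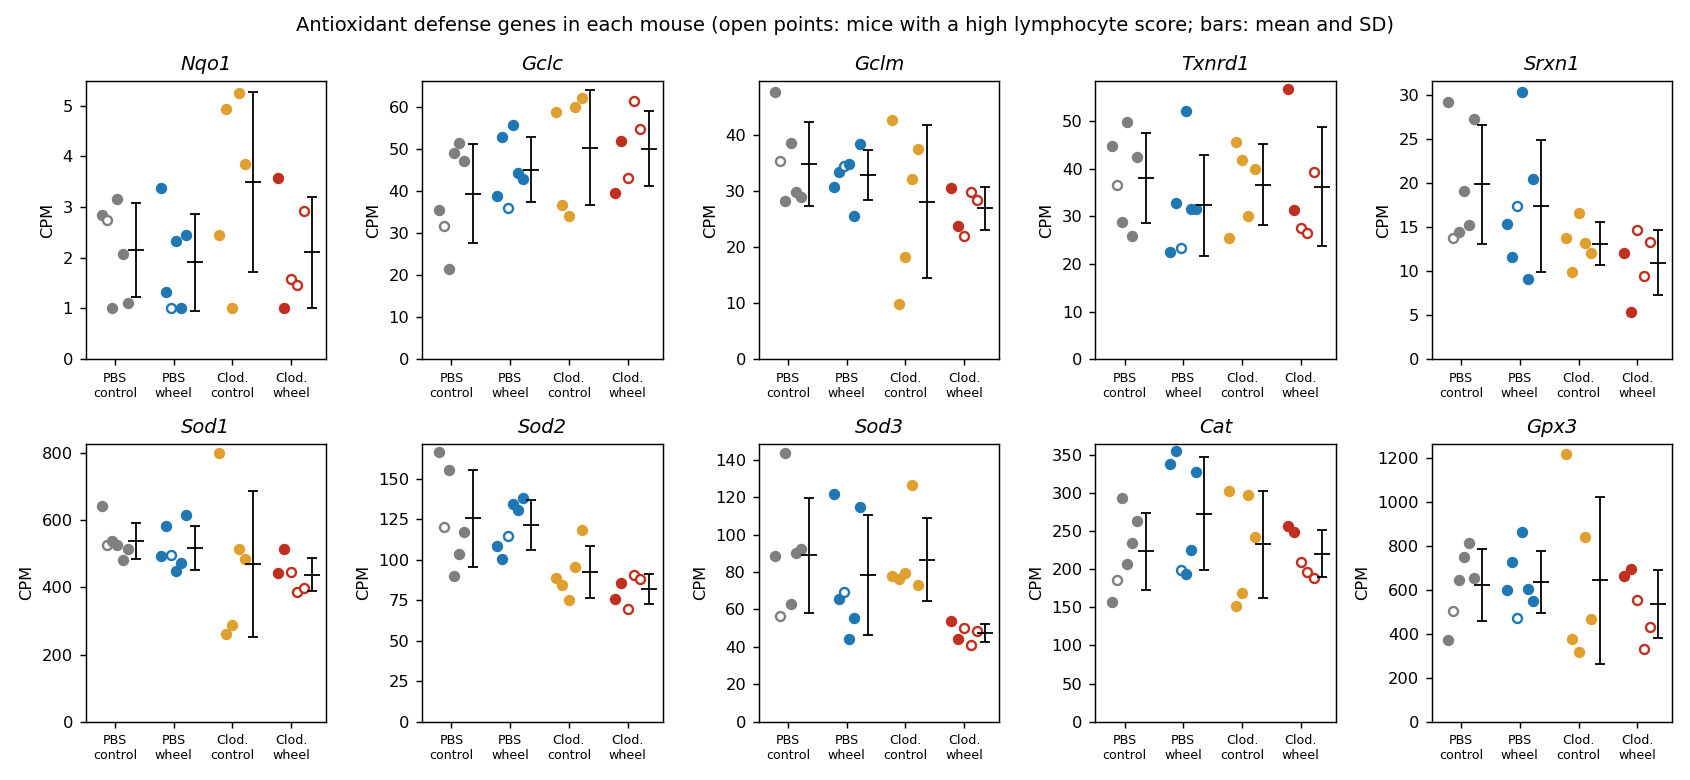
CPM (3′ tags, linear axes from 0) of the 10 antioxidant genes in each of the 22 mice, by group, with the mean and SD beside the points; open points mark the 5 mice with a lymphocyte score of 4.14 or more. Sod3 in clodronate wheel-running mice lies between 41.2 and 53.7 CPM, under all clodronate control mice, and Sod2 lies lower with clodronate in both activity groups.

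Wheel running was first compared with sedentary housing under PBS liposomes, the comparison that asks what activity does to the tissue without clodronate. None of the 10 antioxidant genes passed an adjusted p of 0.05 or an unadjusted p of 0.05 in limma, which was fitted to log2(CPM + 1) with Benjamini-Hochberg adjustment over all 15138 genes. Over all genes, 0 of 15138 passed the adjusted threshold and 4.91% passed the unadjusted one (0.799% higher and 4.12% lower with the wheel). None of the 10 separated the PBS groups without overlap, as 0.0462% of all genes did upward and 0.218% downward. The largest difference upward was in Cat, the peroxisomal enzyme that splits hydrogen peroxide. Cat measured 157 to 294 CPM in the 6 PBS control mice (median 220) and 194 to 354 CPM in the 6 PBS wheel-running mice (median 277). The groups overlapped, although 3 wheel-running mice stood above every control mouse. The log2 difference was 0.27 (SE 0.20, 95% interval -0.14 to 0.68, adjusted p = 0.987, limma). The largest difference downward was in Txnrd1, which recharges cytosolic thioredoxin, at -0.25 (SE 0.22, interval -0.70 to 0.21, adjusted p = 0.987, limma). Txnrd1 spanned 25.8 to 49.9 CPM in control mice (median 39.6) and 22.5 to 52.2 in wheel-running mice (median 31.5). Over the 10 genes the median log2 difference was -0.064, with 7 below 0, beside -0.085 and 63.8% below 0 over all genes. With upper-quartile scaling only 4 of the 10 lay below 0, the median over all genes moved to -0.0012, and the genes with an unadjusted p under 0.05 split into 274 higher of 547, against 121 of 744.

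The same comparison was made under clodronate liposomes, which are given to deplete phagocytes. The summed macrophage markers had medians of 297 and 317 CPM in these control and wheel-running mice, against 338 and 348 with PBS, with overlapping ranges, so depletion was not shown by these markers. Sod3, the secreted superoxide dismutase that works outside cells, was lower with the wheel, and it was the only one of the 10 with an unadjusted p under 0.05. The background at that threshold was 3.4% of all genes lower and 7.04% higher, and none of the 10 passed the adjusted threshold, which 1 of 15138 genes (0.00661%) did. With scaling to assigned reads, 5 of the 10 lay below 0, against 7. The background then had 1384 higher of 1717 genes, against 1065 of 1579, and Sod3 stayed the only one of the 10 at the unadjusted threshold. Clodronate control mice 1 to 5 had 77.9, 76.5, 79.6, 126 and 72.9 CPM of Sod3. Clodronate wheel-running mice 1 to 5 had 53.7, 44.0, 50.2, 41.2 and 48.5 CPM. All 5 wheel-running mice thus lay under all 5 control mice, a separation downward that 0.601% of all genes showed, beside 0.667% upward. The log2 difference was -0.83 (SE 0.25, 95% interval -1.35 to -0.31, adjusted p = 0.257, limma).

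Under PBS liposomes the values of Sod3 ran from 56.4 to 143 CPM in control mice (median 89.4) and from 44.3 to 122 in wheel-running mice (median 67.5). These groups overlapped over most of their range. The log2 difference was -0.21, with an interval from -0.68 to 0.27. The test of the difference between both wheel effects gave -0.62 for Sod3 (SE 0.34, interval -1.32 to 0.083, adjusted p = 0.694, limma), so that a larger effect with clodronate was not shown. Averaged over liposomes, the wheel effect on Sod3 was -0.52 (SE 0.17, adjusted p = 0.532, limma), the only one of the 10 genes with an unadjusted p under 0.05 there (background 8.09%, of which 4.16% lower and 3.93% higher, or 771 of 1196 higher after upper-quartile scaling against 595 of 1224).

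The content of the tissue pieces in these groups was set beside Sod3. The summed adipocyte markers had a median of 21819 CPM in clodronate wheel-running mice (19212 to 28395) and of 30893 in clodronate control mice (15635 to 37748). The ranges overlapped. Clodronate control mice 2 and 3 had the lowest sums of these groups, 15635 and 15965 CPM, beside 76.5 and 79.6 CPM of Sod3. Of the clodronate wheel-running mice, 3 of 5 carried a high lymphocyte score and no clodronate control mouse did. With the adipocyte score as a covariate the log2 difference of Sod3 was -0.61 (adjusted p = 0.343, limma). Without the 5 lymphocyte-high mice, which left 2 clodronate wheel-running mice, it was -0.79 (adjusted p = 0.766, limma). The part of the share of fat in the result was otherwise not tested.

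The other 9 genes gave smaller differences with the wheel under clodronate. The largest upward was in Gclm, the modifier subunit of the enzyme that starts glutathione synthesis, at 0.097 (SE 0.27, interval -0.46 to 0.65, adjusted p = 0.943, limma). Clodronate control mice had 42.5, 9.81, 18.2, 32.1 and 37.5 CPM of Gclm, and clodronate wheel-running mice 30.4, 23.8, 21.9, 29.8 and 28.3 CPM. The control values spread widely, with mouse 2 far down at 161 reads, while the wheel values lay within that spread. Mouse 2 also had the highest summed muscle markers of the 22 mice, 27944 CPM, and without it the difference of Gclm was -0.22. Its partner Gclc, the catalytic subunit, was at 58.7, 36.6, 34.0, 59.8 and 62.2 CPM in the same control mice and 39.5, 51.8, 43.0, 61.3 and 54.7 CPM in the wheel-running mice. Gclc had an interval from -0.43 to 0.48 for the wheel effect, so changes up to about that size in either direction were not excluded. Of the differences between the wheel effects, 0 of 10 had an unadjusted p under 0.05 (background 7.58%, with 6.35% upward and 1.23% downward, or 648 of 1040 upward after upper-quartile scaling against 961 of 1147), and the largest upward one was 0.21 in Txnrd1 (SE 0.33, adjusted p = 0.937, limma). With both liposomes together the largest upward wheel effect was 0.13 in Gclc (SE 0.15, adjusted p = 0.845, limma).

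**Figure D2:**
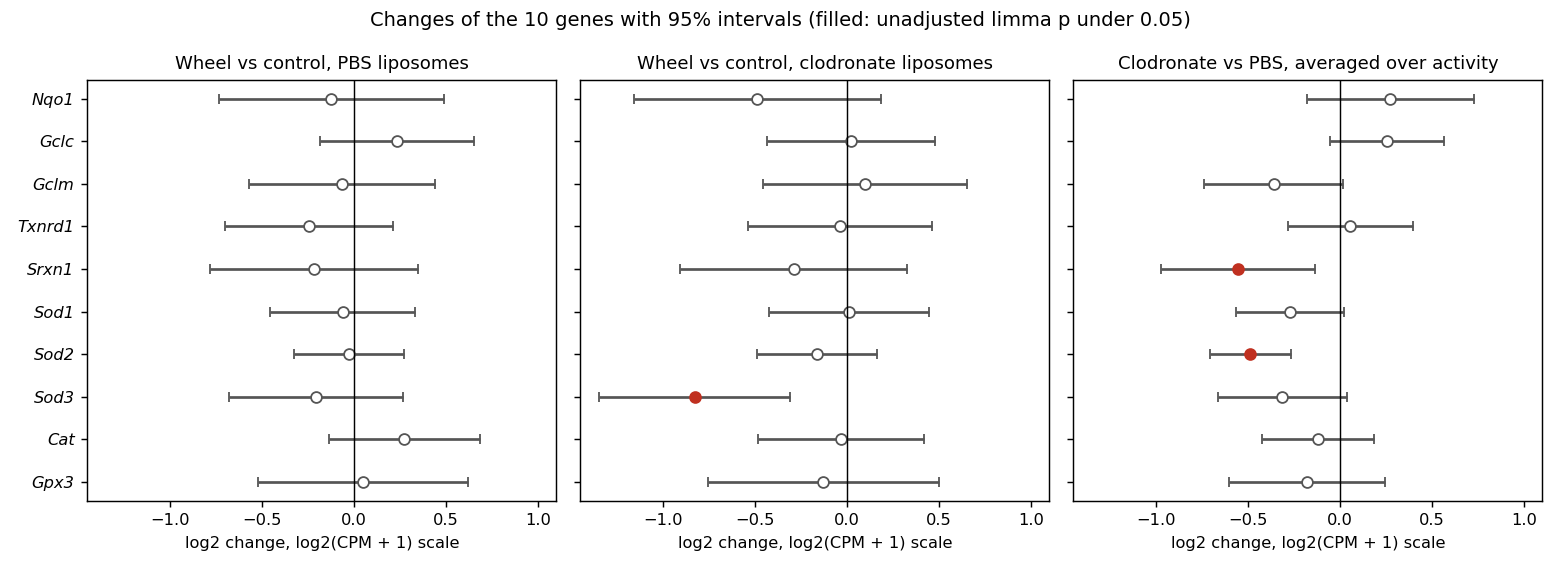
Log2 differences on the log2(CPM + 1) scale with 95% confidence intervals for the 10 genes in 3 comparisons (limma, 22 mice); filled points have an unadjusted p under 0.05. Sod3 under clodronate (-0.83) and Srxn1 (-0.56) and Sod2 (-0.49) in clodronate against PBS are the filled points, and no adjusted p was under 0.05.

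Clodronate was then compared with PBS liposomes, averaged over activity. Sod2 and Srxn1 were lower with clodronate at an unadjusted p under 0.05, beside 8.3% of all genes that were lower at that threshold. None of the 10 was higher at it. The background at this threshold was 323 higher of 1579 genes, and 559 of 1344 after upper-quartile scaling, with Sod2 then at -0.43 and Srxn1 at -0.50. None of the 10 passed the adjusted threshold, which 31 of 15138 genes (0.205%) did, all of them lower with clodronate. The median over the 10 genes was -0.23, with 7 below 0, beside -0.042 and 57.4% below 0 over all genes.

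Sod2, the manganese superoxide dismutase of mitochondria, came closest to a call. Its values ran from 89.9 to 167 CPM in PBS control mice (median 119) and from 100.5 to 138 in PBS wheel-running mice (median 123). With clodronate they were 88.9, 84.4, 75.3, 95.7 and 118 CPM in control mice and 75.5, 85.7, 69.7, 90.9 and 88.3 CPM in wheel-running mice. All 10 clodronate mice lay under the median of the 12 PBS mice, and 7 lay under every PBS mouse. Among wheel-running mice the clodronate and PBS values did not overlap, as for 0.912% of all genes (0.35% were higher without overlap). Among control mice they did, and none of the 10 genes separated those groups (0.575% of all genes did downward and 0.0595% upward). The log2 difference was -0.49 (SE 0.11, interval -0.71 to -0.27, adjusted p = 0.0527, limma). The adjusted p lay close to the threshold, and it passed when genes under a mean of 5 CPM were left out (0.0404) or when 1 of 4 single mice was left out, with values of 0.0210 without PBS control 4, 0.0475 without PBS wheel 2, 0.0373 without clodronate control 1 and 0.0345 without clodronate control 5.

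Srxn1, sulfiredoxin, restores peroxiredoxins that peroxide has overoxidised. It was at 13.8 to 29.2 CPM in PBS control mice (median 17.2) and 9.09 to 30.3 in PBS wheel-running mice (median 16.4). Clodronate control mice had 13.8, 9.88, 16.6, 13.2 and 12.1 CPM, and clodronate wheel-running mice 12.0, 5.31, 14.7, 9.48 and 13.3 CPM. The groups overlapped at the low end. No clodronate mouse exceeded 16.6 CPM, and 9 of the 10 lay under the PBS median of 16.4. The log2 difference was -0.56 (SE 0.20, interval -0.98 to -0.14, adjusted p = 0.294, limma).

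Markers of other cell types were also set beside the liposome groups. Summed fibroblast markers had medians of 3191 and 2918 CPM in PBS control and PBS wheel-running mice, and of 2119 and 1960 in the clodronate groups. The ranges overlapped, at 1928 to 4522 and 1990 to 3756 CPM with PBS and 1740 to 2815 and 1770 to 2889 with clodronate. This difference in fibroblast medians was not tested. All 10 macrophage markers were found, and their sums overlapped between liposomes (216 to 507 CPM in PBS control and 194 to 386 in clodronate wheel-running mice, for instance). The 5 mice with a high lymphocyte score fell unequally, 2 with PBS and 3 with clodronate. Without these 5 mice Sod2 was at -0.51 (adjusted p = 0.183, limma) and Srxn1 at -0.76 (adjusted p = 0.257, limma). With the adipocyte score as a covariate Sod2 was at -0.44 (adjusted p = 0.186, limma). The part of fibroblasts and macrophages in these differences was not tested.

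Of the other superoxide dismutases, Sod1, the copper and zinc enzyme of the cytosol, ran from 483 to 642 CPM in PBS control and from 448 to 614 in PBS wheel-running mice. In clodronate control mice it stood at 801, 262, 290, 515 and 484 CPM and in clodronate wheel-running mice at 443, 513, 447, 388 and 398 CPM. The clodronate control mice thus held both the highest value and the 2 lowest of the 22 mice. The interval of the clodronate difference was -0.57 to 0.019 for Sod1 and -0.67 to 0.037 for Sod3.

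The enzymes that remove peroxide had no unadjusted p under 0.05 between liposomes. Cat was at 303, 151, 169, 297 and 242 CPM in clodronate control mice and at 257, 249, 209, 196 and 189 CPM in clodronate wheel-running mice, within the 157 to 354 CPM of the PBS mice except for the lowest. Gpx3, a selenium enzyme secreted into plasma and tissue fluid, spanned 369 to 811 CPM in PBS control and 471 to 862 in PBS wheel-running mice. In clodronate control mice Gpx3 was at 1217, 375, 319, 841 and 469 CPM, and in wheel-running mice at 664, 695, 556, 332 and 431 CPM. As with Sod1, mouse 1 of the clodronate controls held the highest value and mice 2 and 3 of that group were among the lowest. The intervals of the clodronate difference were -0.43 to 0.18 for Cat and -0.61 to 0.24 for Gpx3.

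Nqo1, an NRF2 target that reduces quinones to hydroquinones, was near the deposited minimum throughout. It sat at that minimum of 1 CPM in 5 of the 22 mice, and in the other 17 it rested on 20 to 85 reads. The median was 2.41 CPM in PBS control, 1.82 in PBS wheel-running, 3.85 in clodronate control and 1.58 in clodronate wheel-running mice. Its clodronate difference was the largest upward one of the 10 genes, 0.27 (SE 0.22, interval -0.18 to 0.73, adjusted p = 0.698, limma), on a scale that understates changes near the minimum. Gclc was at 0.25 (interval -0.056 to 0.56), Txnrd1 at 0.056 (-0.28 to 0.39) and Gclm at -0.36 (-0.74 to 0.015). The estimates of these genes, commonly used as readouts of NRF2, lay on both sides of 0, but each interval included 0. A difference in sign among them was therefore not shown. Srxn1, described above, was at -0.56 (interval -0.98 to -0.14). None of these genes had an adjusted p under 0.05.

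To set these genes among their neighbours, 62 other genes of the same pathways were taken by function, and all 62 were tested. The choice was made with earlier results of these data known, so shares among the 62 are not independent support. In clodronate against PBS, 1 of the 62 fell at an adjusted p under 0.05 and 16 (25.8%) were lower at an unadjusted p under 0.05, with none higher, beside 8.3% and 2.13% of all genes. That background depends on expression level. With genes of a mean of at least 5 CPM, 1281 of 10112 passed the unadjusted threshold, 172 upward and the rest downward. The gene past the adjusted threshold was Pgd, the phosphogluconate dehydrogenase that makes NADPH in the pentose phosphate pathway. Pgd was at 126 to 336 CPM in PBS control mice (median 183) and 100.5 to 190 in PBS wheel-running mice (median 172). With clodronate it was at 171, 47.6, 41.2, 67.5 and 79.7 CPM in control and 72.1, 59.0, 51.2, 109 and 91.7 CPM in wheel-running mice. All 10 clodronate mice lay under the PBS median, and 8 lay under every PBS mouse. The log2 change was -1.19 (SE 0.21, interval -1.63 to -0.75, adjusted p = 0.0167, limma). It was -1.11 with the adipocyte score as a covariate (adjusted p = 0.0878, limma) and -1.25 without the 5 lymphocyte-high mice (adjusted p = 0.111, limma), no longer past the threshold in either.

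The genes of NADPH supply made up much of the count of lower pathway genes. Of these, 6 of 8 were lower at an unadjusted p under 0.05, with a median of -0.56. Beside Pgd these included Taldo1, transaldolase, at -0.56 (SE 0.14, adjusted p = 0.0863, limma). Me1, the cytosolic malic enzyme that feeds NADPH to fat synthesis, was at -1.49 (SE 0.37, adjusted p = 0.0885, limma). The remaining 3, named after their values were seen, were Tkt at -1.07, G6pdx at -0.56 and Idh1 at -0.52. Me1 spanned 252 to 1506 CPM in the 12 PBS mice and 81.4 to 685 in the 10 clodronate mice, so that the groups overlapped over a wide range. Without clodronate control 1 both Taldo1 and Me1 passed the adjusted threshold (adjusted p = 0.00511 and 0.0119, limma). Pentose phosphate enzymes and Me1 also serve fat synthesis in adipocytes. The other peroxidases and peroxiredoxins had 6 of 10 lower at that threshold, with a median of -0.31, and none of them passed the adjusted one. The 7 genes of NRF2 regulation, Nfe2l2 and Keap1 among them, had 0 of 7 at that threshold and a median of -0.071.

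**Figure D3:**
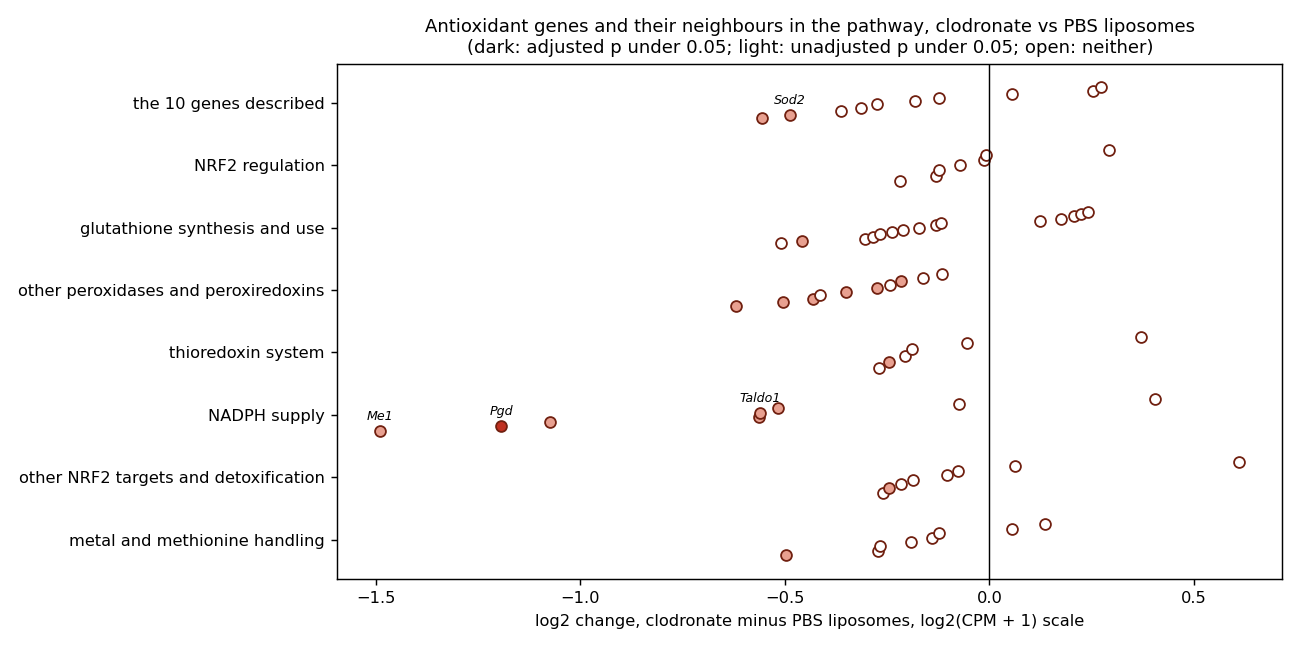
Log2 differences, clodronate minus PBS liposomes averaged over activity, on the log2(CPM + 1) scale for the 10 antioxidant genes and 62 pathway genes in 7 lists; dark points have an adjusted p under 0.05, light points an unadjusted p under 0.05 and open points neither. Pgd at -1.19 is the dark point, and 6 of the 8 NADPH supply genes lie at -0.52 or lower.

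The wheel comparisons gave smaller counts among these 62 genes. Under PBS liposomes 0 passed the adjusted threshold and 3 (4.84%) had an unadjusted p under 0.05, about the 4.91% of all genes. The 3 were Glo1, which clears methylglyoxal, at -0.51, Prdx6 at -0.42 and Txnip, an inhibitor of thioredoxin, at 0.73. Under clodronate liposomes 0 passed the adjusted threshold and 8 (12.9%) had an unadjusted p under 0.05, beside 10.4% of all genes. Of the 62, 7 (11.3%) were lower and 1 (1.61%) higher, beside 3.4% and 7.04% of all genes. Gpx7, a peroxidase of the endoplasmic reticulum, gave the smallest p of them, at -1.22 (SE 0.29, adjusted p = 0.207, limma). Its values lay between 5.69 and 9.14 CPM in clodronate control mice and between 1.21 and 3.57 in clodronate wheel-running mice, without overlap. The lowest of these was near the deposited minimum of 1 CPM. Of the 62 genes, 2 separated these groups downward, Gpx7 and Txnrd3, beside 0.601% of all genes. Upward it was 0 of the 62, beside 0.667%. Without clodronate wheel-running mouse 2 the adjusted p of Gpx7 was 0.0476 (limma). Prdx5 was at -0.49, but at 0.0086 without the 5 lymphocyte-high mice. The metallothionein Mt1 was at -0.56 and Ccs, the copper chaperone of SOD1, at 0.51. Over the other settings Mt1 ran from -0.62 to -0.23 and Ccs from 0.41 to 0.67. The difference between the wheel effects was -1.28 for Gpx7, -0.47 for Prdx1 and 0.70 for Ccs, with adjusted p of 0.591, 0.633 and 0.633 (limma). Averaged over liposomes 9 of 62 had an unadjusted p under 0.05 and 0 passed the adjusted threshold. That was 14.5% (8 lower and 1 higher), beside 8.09% of all genes (4.16% lower and 3.93% higher), with Prdx6 at -0.38, Gpx7 at -0.58, Mt1 at -0.44 and Txnip at 0.46 among them. This averaged effect on Mt1 ran from -0.46 to -0.27 over the other settings.

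The 10 genes did not vary together from mouse to mouse as 1 block. After each group was centred on its mean of log2(CPM + 1), Pearson's r over the 22 mice was above 0 in 34 of the 45 pairs, with a median of 0.097. It exceeded 0.5 in 5 pairs, Gclm with Sod1 (0.80), Cat with Gpx3 (0.63), Sod1 with Cat (0.62), Sod1 with Gpx3 (0.60) and Sod3 with Cat (0.59). By rank (Spearman) the same pairs had 0.59, 0.56, 0.55, 0.31 and 0.50, so that Sod1 with Gpx3 was weaker. The lowest Pearson's r was -0.42 between Txnrd1 and Sod3. All such values come from the same libraries, so that depth and the make-up of each tissue piece are shared between the genes, and they are given as descriptions.

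The genes most like each member, out of all 15138 tested, set the members apart. For Cat they were Car3 (r = 0.92), Pnpla2 (0.91) and Cidec (0.90), all markers of fat cells. Cat had r = 0.90 with the adipocyte score, which contains these same genes and so adds no separate support. It also had r = 0.77 with the endothelium score, 0.59 with the fibroblast score and -0.71 with the score of dividing cells. For Sod3 they were Lep, which encodes the fat cell hormone leptin (0.92), Lpgat1 (0.89) and Npr3 (0.89). Lep stood at 110 to 317 CPM in clodronate control mice and 35.3 to 64.2 in clodronate wheel-running mice, without overlap. The wheel-running group was the lower one, as for Sod3, a separation downward that 0.601% of all genes showed, beside 0.667% upward. Lep was named because its r with Sod3 was the highest. Sod1 went with Sfxn1 (0.95), Cfd (0.90) and Slc25a51 (0.88), and Gpx3 with Cfd (0.82), Chst1 (0.77) and Sh3glb2 (0.77). Cfd encodes adipsin, a fat cell product, and both Lep and Cfd are part of the adipocyte score.

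**Figure D4:**
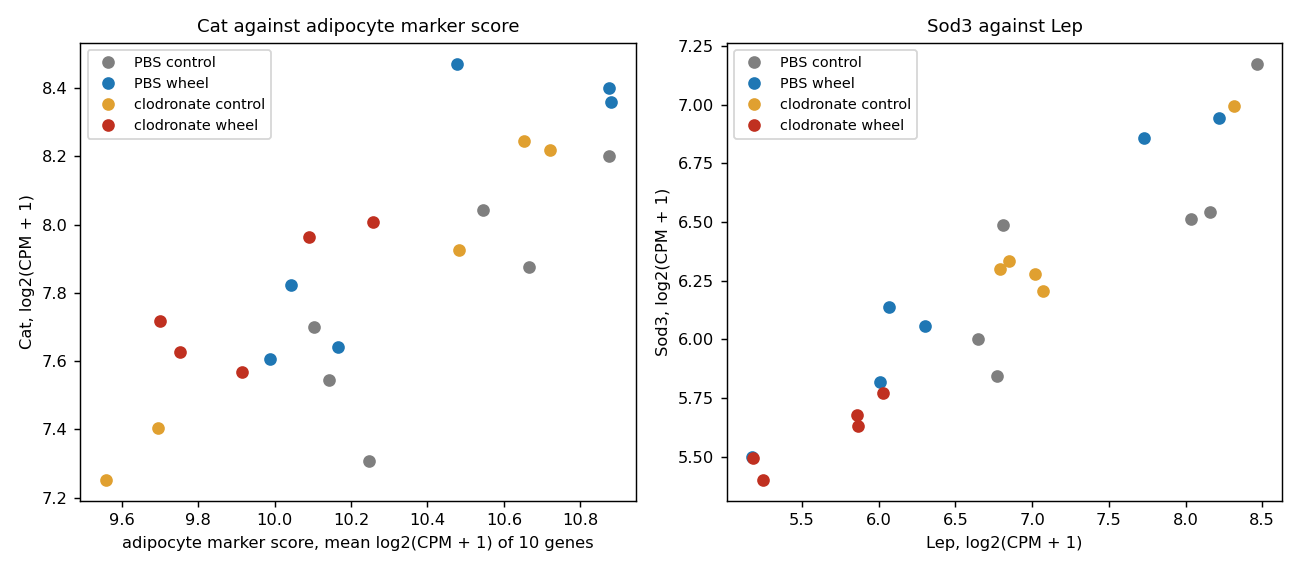
Left, Cat against the adipocyte marker score (mean of 10 genes), and right, Sod3 against Lep, each as log2(CPM + 1) in the 22 mice, coloured by group. With groups centred, r was 0.90 for Cat with the score and 0.92 for Sod3 with Lep, and the 5 clodronate wheel-running mice lie at the lower left for Sod3.

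The remaining genes had other neighbours. Gclm went with B3glct (0.90), Ifi27 (0.89) and Tmco1 (0.83), and had r = -0.74 with the muscle score. Gclc went with Zfp664, Rab15 and the epithelial keratin Krt7 (0.80 each). It had r = 0.45 with the epithelial score, 0.45 with the fibroblast score and -0.43 with the muscle score. Txnrd1 went with Unc5b (0.83), Myo10 (0.82) and Iqgap3 (0.78). It had r = -0.61 with the endothelium score, 0.54 with the score of dividing cells and -0.41 with the adipocyte score. Over the 17 mice without a high lymphocyte score these were -0.73, 0.81 and -0.67. Srxn1 went with Slc25a13 (0.86), Nifk (0.85) and Prmt5 (0.84), and had r = 0.61 with the macrophage score. Sod2 went with Alg1 (0.79), Serpinh1 (0.76) and Dld (0.75), and Nqo1 with Nrxn3 (0.82), Dag1 (0.80) and Lzic (0.74). With the adipocyte score r was 0.72 for Sod3, 0.66 for Sod1, 0.52 for Gpx3 and 0.23 for Sod2. With the endothelium score r was 0.64, 0.63, 0.57 and 0.041 for the same genes, so adipocytes were not singled out. Sod3 also had r = -0.56 with the score of dividing cells and -0.57 with the brown fat score. Sod1 had r = 0.69 with the red blood cell score. With the neutrophil score r was -0.68 for Gpx3 and -0.67 for Gclc, but those 6 markers summed to only 6 to 18.8 CPM.

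**Figure D5:**
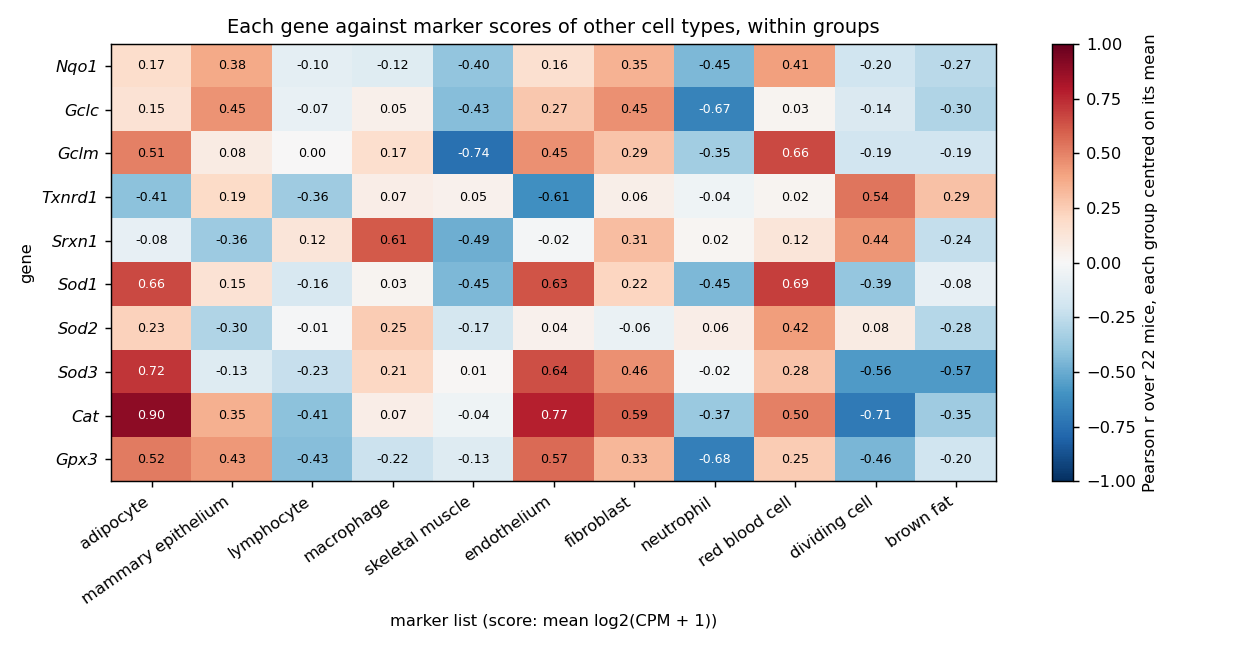
Pearson's r, over the 22 mice with each group centred on its mean, between each of the 10 genes and the marker score (mean log2(CPM + 1)) of 11 cell types or states; colour runs from -1 (blue) to 1 (red). Cat with adipocytes (0.90) and Gclm with skeletal muscle (-0.74) are the extremes, and Sod2 stays at 0.42 or less.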

How the data were processed

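RNA from mammary tissue of 22 mice was sequenced with QuantSeq 3′ libraries. Per the submitters' processing notes, STAR 2.5.3a and GRCm38 were used. The counting program is not given in the sources used here. The authors deposited 1 signal value for each gene (CPM, floor 1). Above that floor 100% of values were whole multiples of 1 read (tolerance 0.1), which gave the depth. Reads at the floor are lost, so no count model was used, and the deposited signal was analysed as log2(CPM + 1). Entries for multimapping (16.6% to 19.9% of reads), unmapped (4.13% to 8.66%), featureless (11.5% to 17.8%) and ambiguous reads (0.484% to 0.615%) were left out of the tests. For each of 106 repeated symbols the entry of highest mean was kept.

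The 15138 genes that exceeded the floor in 5 or more mice were fitted with limma 3.58.1 in R 4.3.3 (4 group means, eBayes with a variance trend, Benjamini-Hochberg adjustment over all genes), a step tested on simulated data. Groups came from the labels, each mouse was 1 replicate, and p-values measure the spread between mice. Standard errors (SE) and 95% intervals are limma's. Summaries used numpy 2.4.6 and pandas 2.3.3 in Python 3.11.15, and copies of transcript ends were searched with BLAST 2.17.0 (at least 97% identity over 200 of the last 400 bases).

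The 10 genes, the pathway and marker lists and the comparisons were chosen with earlier results of these data known. A change was given for genes with an unadjusted p under 0.05 and for the largest rise and fall among the 10. Of the pathway genes, those past the adjusted threshold and up to 3 each way with the smallest unadjusted p in each comparison were named, and for each of the 10 the 3 genes with the highest r. Alternatives were other pseudocounts, filters and scalings, only the groups compared, no variance trend, a replicate block, marker scores as covariates (the epithelial and muscle scores were added after seeing the data), and leaving out mice.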

Additional observations from a re-analysis of the deposited data

Results flagged for a closer look

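Sod3 in clodronate control mouse 4 stood apart, at 126.4 CPM, with the next mouse of its group at 79.6 CPM, a gap of 0.840 of the group's whole range. It was 1 of 40 sets of 5 or 6 mice examined (10 genes in 4 groups), and chance alone would give about 2. Without this mouse the difference of Sod3 between clodronate wheel-running and clodronate control mice was -0.68 on the log2 scale, against -0.83 with it.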

How the results depend on the processing

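No alternative brought any of the 10 genes past the adjusted threshold in the 4 comparisons that involve the wheel. In clodronate against PBS the count was 1 (Sod2) with genes of a mean of at least 5 CPM, and 0 to 1 when mice were left out one at a time. Sod2 ranged from -0.51 to -0.43 over the other settings (adjusted p 0.0404 to 0.188) and from -0.53 to -0.44 without single mice (adjusted p 0.0210 to 0.129, limma). The number of the 10 with an unadjusted p under 0.05 there rose from 2 to 4 without clodronate control 1 (Gclm and Sod1 added) and to 5 without clodronate control 4 (Gclm, Sod1 and Sod3 added). It was 3 without PBS control 2 or PBS wheel 4 (Sod3 added) and without PBS wheel 5 or clodronate control 5 (Gclm added), and Gclc, higher, joined with the replicate block, with the muscle covariate or without clodronate control 3. Sod3 under clodronate stayed lower with the wheel throughout, from -0.86 to -0.61 over the settings and -0.88 to -0.68 without single mice. Its difference between wheel effects had an unadjusted p under 0.05 with upper-quartile scaling (-0.74, limma), without PBS control 3 and without PBS wheel 4. With the adipocyte score as a covariate Cat had an unadjusted p under 0.05 with the wheel under PBS (0.29, adjusted p = 0.779, limma) and averaged over liposomes, where Sod3 had one too. Nqo1 had an unadjusted p under 0.05 with the wheel under clodronate only without clodronate control 3.

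Changes of sign were found for Gclm with the wheel under clodronate, at -0.050 with the muscle score as a covariate and -0.22 to 0.28 without single mice (-0.22 without clodronate control 2 and -0.010 without clodronate control 3). Prdx5 in that comparison was at 0.0086 without the lymphocyte-high mice, which left 2 mice in 1 group. The cause was not tested. Upper-quartile scaling moved the split of all genes with the wheel under PBS, at an unadjusted p under 0.05, from 121 higher of 744 to 274 of 547. Counts of all genes past the adjusted threshold moved widely in clodronate against PBS, from 31 to 54 with the 5 CPM filter, 12 with upper-quartile scaling, 15 with scaling to assigned reads, 20 without the variance trend, 17 with the muscle covariate, 0 with the adipocyte covariate, 0 without the lymphocyte-high mice, and 9 (without clodronate control 3) to 146 (without clodronate control 1) without single mice. With the wheel under clodronate they lay between 0 and 12, against 1, and reached 118 without clodronate wheel-running mouse 1 and 236 without mouse 2. Without a filter the difference between wheel effects and the averaged wheel effect had 2 calls each, against 0.

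Replicate numbers were shared by different animals. Deviations of same-numbered mice from their group means had a mean r of -0.075 with PBS (-0.25 to 0.11) and 0.18 with clodronate (-0.12 to 0.52). These values were not set against those of differently numbered mice, so whether the numbers pair the mice was not tested. With a replicate block 0 of the 10 genes passed the adjusted threshold in any comparison, and Sod2 was at -0.47 (adjusted p = 0.188, limma). Over all genes 11 were called with the block in clodronate against PBS, against 31. Nqo1, with a mean under 5 CPM, was not tested under that filter, and comparisons that use all 4 groups have no fit restricted to the groups compared. Values near 1 CPM limit what can be said of Nqo1.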
